A study of Mus musculus with 6 samples.

Results

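The 10 genes described here encode transcription factors known for their work in hematopoietic stem cells: Mecom, Prdm16, Meis1, Hlf, Mycn, Etv6, Gata2, Tal1, Lmo2 and Runx1. They were chosen by function, though with earlier results of these data known. All 10 were measured, out of 22180 genes that had a probe set (the group of probes read as 1 value) annotated to a single symbol. RNA was measured on Affymetrix MoGene arrays, 1 array per sample, in lineage-negative, Sca1-positive, cKit-positive (LSK) bone marrow cells, the fraction that holds stem cells and multipotent progenitors. One group of 3 samples came from mice that carried transplanted TIFAB-/- (KO) marrow and the other group of 3 from mice that carried TIFAB+/+ (WT) marrow. Recipients in both groups were Boy/J mice that had been lethally irradiated, and the 3 months in the labels may count either age or time since the transplant. The labels do not say how the Tifab allele was made, nor do they mention gating on a donor marker, so recipient cells that survived irradiation cannot be told apart from donor cells. The series asks how loss of Tifab, a gene of the region deleted in del(5q) myelodysplastic syndrome, alters the expression profile of these cells after engraftment.

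Stem cell identity is held by a small set of DNA-binding proteins that act in shared complexes. GATA2, TAL1, LMO2 and RUNX1 sit together with LYL1, ERG and FLI1 on many blood enhancers; in that assembly LMO2 binds no DNA itself and bridges TAL1 to GATA factors. MECOM and PRDM16 are related PR-domain zinc-finger proteins needed to keep stem cells in the adult marrow. MEIS1 is a homeodomain cofactor of HOX proteins, HLF a bZIP factor whose expression marks the most primitive cells, MYCN a bHLH factor that acts beside MYC in stem cell survival and proliferation, and ETV6 an ETS family repressor required for stem cells in the adult marrow.

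Of the 10 genes, Meis1 and Mycn were higher and Hlf lower in the KO arrays at an unadjusted p under 0.05, and the other 7 did not pass that threshold. It was passed by 10.3% of all genes. None of the differences passed adjustment over all genes. The 3 promoters are printed here because these genes passed the unadjusted threshold. Each line is the 250 bases before the RefSeq start site in GRCm38.p6, 5′ to 3′ on the gene's own strand, which is the minus strand for all 3. Capitals mark matches, on either strand, to motifs bound by factors of this group. The letters searched were CANNTG for the E-box, which TAL1 binds, with CACGTG as its form for MYCN, then AGATAA for GATA2, TGTGGT for RUNX1, TGACAG for MEIS1, CCGGAAG for the ETS family and TTACGTAA for HLF.
Meis1: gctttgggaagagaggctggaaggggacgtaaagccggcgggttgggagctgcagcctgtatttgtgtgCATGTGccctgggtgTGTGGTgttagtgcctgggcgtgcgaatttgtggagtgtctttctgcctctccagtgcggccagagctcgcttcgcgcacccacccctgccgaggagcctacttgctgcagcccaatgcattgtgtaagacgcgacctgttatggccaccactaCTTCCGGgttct
Mycn: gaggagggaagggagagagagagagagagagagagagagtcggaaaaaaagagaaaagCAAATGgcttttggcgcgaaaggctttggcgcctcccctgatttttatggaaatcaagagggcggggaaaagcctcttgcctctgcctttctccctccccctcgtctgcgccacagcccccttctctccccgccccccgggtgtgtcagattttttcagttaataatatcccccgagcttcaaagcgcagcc
Hlf: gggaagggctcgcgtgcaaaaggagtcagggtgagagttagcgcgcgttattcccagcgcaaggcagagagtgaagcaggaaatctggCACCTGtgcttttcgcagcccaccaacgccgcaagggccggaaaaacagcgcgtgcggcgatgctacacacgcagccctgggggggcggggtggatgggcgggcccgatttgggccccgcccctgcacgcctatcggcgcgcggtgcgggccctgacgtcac
The Meis1 window is chr11:19018970-19019219, within the annotated gene (chr11:18880428-19019651), which has a further start upstream. The Mycn window is chr12:12941837-12942086, next to the gene at chr12:12936093-12941836, and the Hlf window is chr11:90390918-90391167, next to the gene at chr11:90336535-90390917. The Meis1 window held 1 E-box (CATGTG), 1 RUNX motif and 1 ETS motif, the last of these 12 to 6 bases before the start site. Mycn and Hlf held 1 E-box each, CAAATG and CACCTG, and none of the other letters searched. Over all 32851 RefSeq promoter windows of the same length, 66.2% held CANNTG, 14.0% TGTGGT, 6.91% CCGGAAG, 9.99% AGATAA, 15.9% TGACAG, 6.02% CACGTG and 0.113% TTACGTAA. CACGTG is itself a form of CANNTG. Of the 13 windows listed for 9 of the 10 genes, 5 held CANNTG, 1 (Runx1) CACGTG, 1 (Tal1) AGATAA, 1 (Mecom) TGACAG and 0 TTACGTAA. These matches describe the letters of the windows.

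Before the genotypes were compared, the labels and the sort were checked. The Tifab probe set read 5.12 to 5.26 in the KO arrays and 4.99 to 5.53 in the WT arrays on the log2 scale, so it gave no check on the labels; the position of its probes relative to the deletion is not stated. The groups are therefore called by their labels throughout. Arrays correlated across genes at r = 0.985 to 0.986 within the KO label, at 0.976 to 0.979 within the WT label and at up to 0.983 for a KO and a WT array, so some pairs across the labels were more alike than any pair of WT arrays. Kit, the receptor used in the sort, read 9.59, 9.57 and 9.41 in the KO arrays and 9.69, 9.58 and 9.50 in the WT arrays. The gene of Sca1 was not analysed here, for want of a probe set with a single symbol. Among genes of mature cells, 4 of 7 T and NK cell genes, 4 of 7 macrophage genes and 4 of 6 stroma and endothelium genes lay under the median level of all genes, 4.42, while the 9 neutrophil genes all lay above it, with a summed level of 12.5 to 12.7 in KO arrays and 12.5 to 12.7 in WT arrays; 1 of the 9, the collagenase gene Mmp8, was lower in KO at the unadjusted threshold of 0.05, at -0.85 ± 0.24 (SE, log2). Macrophage genes had a summed level of 6.87 to 7.19 in KO arrays and 7.22 to 7.46 in WT arrays. Of the 7, 3 were higher and 4 lower in KO. At that threshold 1 was higher (C1qa) and 3 lower (Vcam1, C1qb and Cd5l). The same threshold was passed by 10.3% of all genes. Under the median level lay 0 of 3 erythroid genes and 2 of 6 B cell genes. The summed level of erythroid genes was 7.91 to 8.36 in KO arrays and 7.21 to 8.55 in WT arrays. For B cell genes it was 8.45 to 8.98 in KO arrays and 7.99 to 9.17 in WT arrays. WT replicate 1 was the lowest array in both. The part of these mature cell genes in the results below was not tested.

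Each gene was compared between the labels with limma, a linear model whose spread is moderated over all genes, as KO minus WT in log2 units. A value of 1 there would be a doubling. No gene of the 22180 passed an adjusted p of 0.05 (0.0% of all genes), and 2274 (10.3%) had an unadjusted p under 0.05, of which 1052 (4.74% of all genes) were higher and 1222 (5.51%) lower in KO. Against this background, 3 of the 10 stem cell factors passed the unadjusted threshold, 2 higher and 1 lower. For the same 3 the KO and WT arrays did not overlap, which held for 16.1% of all genes (7.75% with every KO array above, 8.37% with every KO array below). The median difference over the 10 was 0.03, beside 0.00 over all genes, and the median size of a difference was 0.17, beside 0.16 over all genes.

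**Figure D1:**
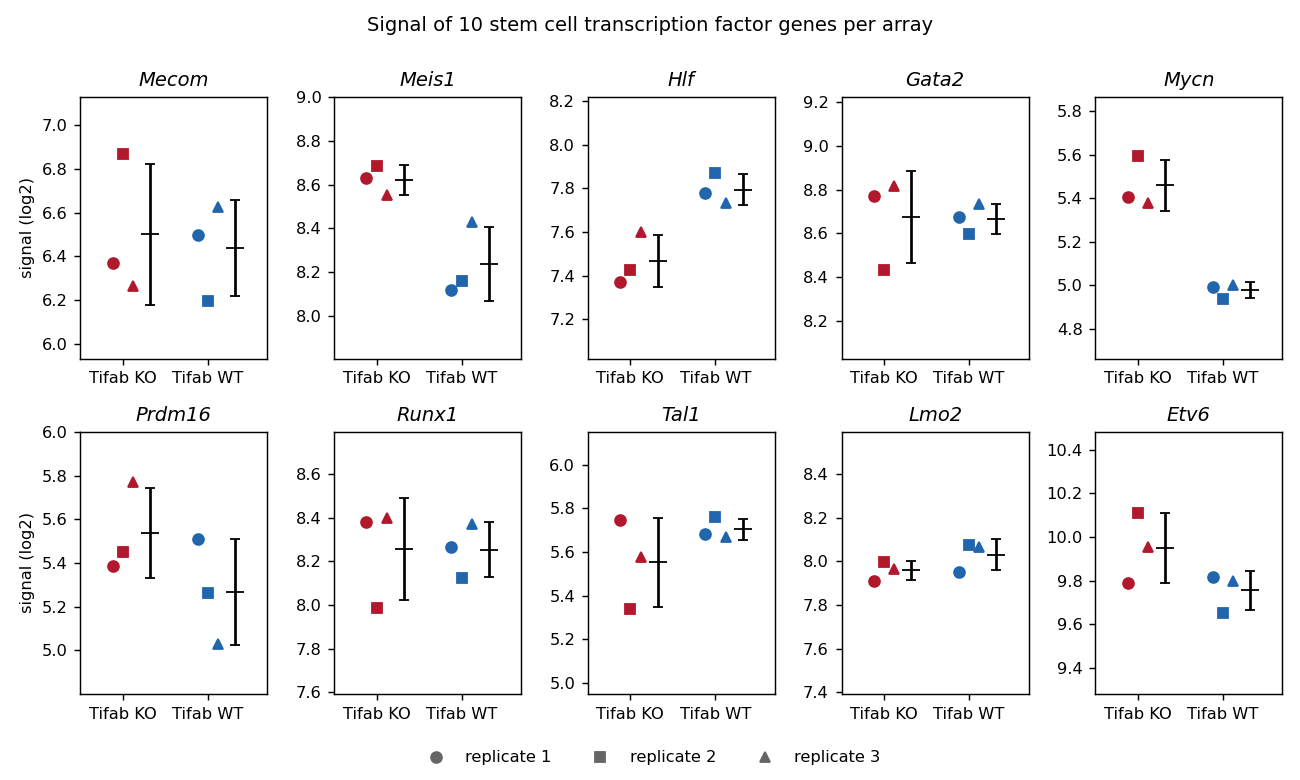
Signal (log2, vertical axis) of each of the 10 genes in the 3 Tifab KO arrays (red, left) and the 3 Tifab WT arrays (blue, right), with the mean and SD of each group as a black bar and every panel spanning the same range. Meis1 and Mycn are above WT in every KO array and Hlf is below it, while the other 7 genes overlap.

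Mycn had the largest difference of the 10 and was the dimmest of them, at percentile 61.5 of all genes by mean signal. It read 5.40, 5.59 and 5.38 in the KO arrays, against 4.99, 4.94 and 5.00 in the WT arrays. The lowest KO array was above the highest WT array by 0.37, which is larger than the whole span of either group. The means were 5.46 ± 0.12 in KO and 4.98 ± 0.04 in WT (SD, n = 3 each), a difference of 0.48 ± 0.15 (SE) or 1.40-fold, with a 95% interval of 1.10 to 1.76-fold (limma adjusted p = 0.362). With any single array left out the difference stayed between 0.41 and 0.52.

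Meis1 came next. It read 8.63, 8.69 and 8.55 in the KO arrays, against 8.12, 8.16 and 8.43 in the WT arrays. The groups did not overlap, but WT replicate 3 stood well above the other WT arrays and came within 0.12 of the lowest KO array. The means were 8.62 ± 0.07 in KO and 8.24 ± 0.17 in WT (SD, n = 3 each), a difference of 0.39 ± 0.13 (SE) or 1.31-fold, with a 95% interval of 1.07 to 1.60-fold (limma adjusted p = 0.384). Left-out arrays moved the difference between 0.33 and 0.48.

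Hlf lay on the other side. It read 7.37, 7.43 and 7.60 in the KO arrays, against 7.78, 7.87 and 7.73 in the WT arrays. Every KO array was below every WT array, with KO replicate 3 closest, 0.13 under the lowest WT array. The means were 7.47 ± 0.12 in KO and 7.79 ± 0.07 in WT (SD, n = 3 each), a difference of -0.33 ± 0.13 (SE) or 0.797 of the WT level, with a 95% interval of 0.650 to 0.978 (limma adjusted p = 0.456). This was the least secure of the 3: Hlf missed the unadjusted threshold without KO replicate 1 (a difference of -0.28), KO replicate 2 (-0.31), WT replicate 1 (-0.33) or WT replicate 2 (-0.29), and with any array left out the difference lay between -0.39 and -0.28.

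**Figure D2:**
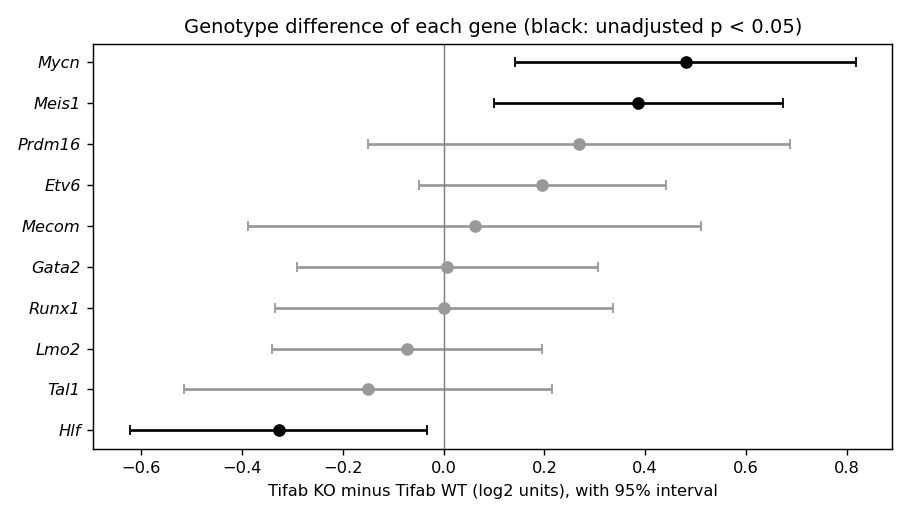
Difference between Tifab KO and Tifab WT (log2 units, horizontal axis; positive is higher in KO) for each gene, with the 95% interval from limma. The intervals of Mycn, Meis1 and Hlf, in black, leave out 0, from 0.48 for Mycn to -0.33 for Hlf, and those of the other 7 genes, in grey, span it.

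Meis1 and Hlf lay on opposite sides, and their relation within an array is free of any factor applied to that array as a whole. The Meis1 signal minus the Hlf signal was 1.26, 1.26 and 0.95 in the KO arrays, against 0.34, 0.29 and 0.70 in the WT arrays. Every KO array was above every WT array, by 0.71 between the group means. The Mycn signal minus the Hlf signal was -1.97, -1.83 and -2.22 in the KO arrays, against -2.78, -2.93 and -2.73 in the WT arrays, again without overlap. For both pairs the lack of overlap was fixed in advance. Meis1 and Mycn were already above WT in every KO array and Hlf below it. The Meis1 signal minus the Mycn signal overlapped, at 3.23, 3.09 and 3.17 in KO and 3.12, 3.22 and 3.43 in WT. These pairs were chosen after their values were seen and are given as a description; they compare arrays and say nothing of which gene has more transcript.

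The PR-domain genes Prdm16 and Mecom did not pass the threshold. Prdm16 read 5.39, 5.45 and 5.77 in the KO arrays, against 5.51, 5.26 and 5.03 in the WT arrays, so WT replicate 1 lay among the KO arrays. The difference was 0.27 ± 0.19 (SE), with a 95% interval of -0.15 to 0.69 (limma adjusted p = 0.640). The other Prdm16 probe set gave 0.20 ± 0.19 (SE), with the same sign. Mecom read 6.37, 6.87 and 6.27 in the KO arrays, against 6.50, 6.20 and 6.62 in the WT arrays. Its spread was the widest of the 10 in KO, an SD of 0.32, because replicate 2 stood apart from the other KO arrays. The difference was 0.06 ± 0.20 (SE; limma adjusted p = 0.939), the value became -0.12 without KO replicate 2, and a dimmer Mecom probe set gave -0.08 ± 0.18 (SE). The interval of -0.39 to 0.51 includes 0.39, the difference of Meis1.

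The ETS repressor gene Etv6 read 9.79, 10.11 and 9.95 in the KO arrays, against 9.81, 9.65 and 9.80 in the WT arrays. The KO arrays reached higher but the groups overlapped through KO replicate 1. The difference was 0.20 ± 0.11 (SE), with a 95% interval of -0.05 to 0.44 (limma adjusted p = 0.564). Without KO replicate 1 the difference was 0.28 and passed the unadjusted threshold, though not the adjusted one.

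The genes of the shared enhancer complex did not pass the unadjusted threshold. Gata2 read 8.77, 8.43 and 8.82 in the KO arrays, against 8.68, 8.60 and 8.73 in the WT arrays, a difference of 0.01 ± 0.13 (SE). Runx1 read 8.38, 7.99 and 8.40 in the KO arrays, against 8.27, 8.12 and 8.37 in the WT arrays, a difference of 0.00 ± 0.15 (SE). In both, KO replicate 2 was the lowest of all arrays and KO replicate 3 the highest, so the KO group enclosed the WT group. Tal1 read 5.75, 5.34 and 5.58 in the KO arrays, against 5.68, 5.76 and 5.67 in the WT arrays, a difference of -0.15 ± 0.16 (SE), or -0.04 without KO replicate 2. Lmo2, the bridging factor, read 7.91, 7.998 and 7.97 in the KO arrays, against 7.95, 8.08 and 8.07 in the WT arrays. Its difference was -0.07 ± 0.12 (SE), and its range over the 6 arrays, 0.17, was the narrowest of the 10. The 95% intervals were -0.29 to 0.31 for Gata2, -0.33 to 0.34 for Runx1, -0.51 to 0.21 for Tal1 and -0.34 to 0.19 for Lmo2, and the limma adjusted p values lay between 0.783 and 0.999. The intervals of Runx1, Tal1 and Lmo2 include the difference of Hlf, -0.33, and that of Gata2 does not.

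KO replicate 2 was an end point for 7 of the 10 genes. It was the highest array for Mecom, Meis1, Mycn and Etv6 and the lowest for Gata2, Runx1 and Tal1. WT replicate 2 was an end point for 6, the lowest for Mecom, Mycn and Etv6 and the highest for Hlf, Tal1 and Lmo2. Within groups, the SD of Gata2, Runx1 and Tal1 was 0.20 to 0.23 in KO and 0.05 to 0.13 in WT, while over all genes the median SD was 0.17 in KO and 0.21 in WT. The same KO array differed from the other KO arrays in eosinophil RNA: Prg2, which encodes eosinophil major basic protein, read 6.44, 9.65 and 6.38 in the KO arrays, against 9.62, 8.87 and 9.23 in the WT arrays. Whether this has a part in the spread of the stem cell factors was not tested.

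**Figure D3:**
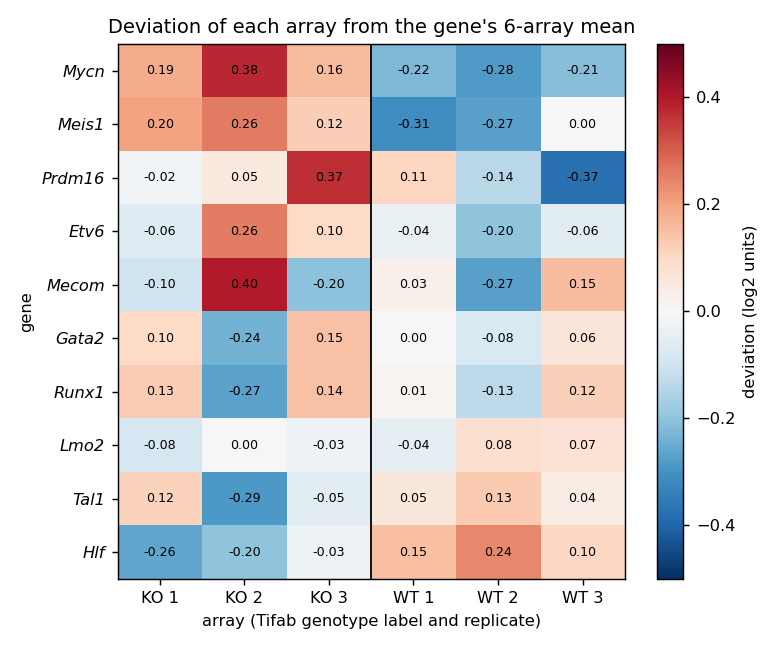
Deviation of each array from the gene's mean over 6 arrays (log2 units; red above, blue below), with genes down the page from the highest KO minus WT difference to the lowest and KO arrays left of WT arrays. Mycn is positive in every KO array and negative in every WT array, Hlf the reverse, and KO replicate 2 is negative for Gata2, Runx1 and Tal1.

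In sorted bulk cells, fewer cells of a type and less RNA per cell cannot be told apart. Genes listed as markers of stem cells and progenitors were therefore set beside the differences. Of 7 measured surface and signalling genes listed for long-term stem cells, 4 were higher and 3 lower in KO, 0 passed the unadjusted threshold and the median difference was 0.01. Their summed level was 9.06 to 9.13 in the KO arrays and 8.98 to 9.02 in the WT arrays. The brightest of them, Cd27, weighs most in that sum, which is therefore no measure of stem cell content. Cd27 read 8.08, 8.03 and 7.83 in KO and 7.70, 7.81 and 7.81 in WT. Procr, which encodes the stem cell marker EPCR, had a difference of 0.06 ± 0.20 (SE) and Fgd5, a stem cell reporter gene, 0.42 ± 0.21 (SE). Slamf1 had 0.01 ± 0.14 (SE). On the lower side, Tek had -0.20 ± 0.19 (SE), Robo4 -0.16 ± 0.21 (SE) and Esam -0.09 ± 0.16 (SE). Among markers of multipotent progenitors, Cd34 had 0.13 ± 0.09 (SE) and Flt3, the receptor of lymphoid-primed progenitors, -0.24 ± 0.13 (SE). Gata2 is also a gene of mast cells and basophils, and Meis1 of megakaryocytes. The summed level of 5 mast cell, basophil and eosinophil genes was 8.49 to 10.1 in KO and 9.49 to 10.2 in WT. At the unadjusted threshold, which 10.3% of all genes passed, 3 were lower in KO. These were the eosinophil genes Prg2 and Epx and the mast cell and basophil gene Ms4a2. KO replicate 2 was the highest of all arrays for Prg2, at 9.65. For Epx it read 5.80, against 5.48 to 6.13 in the WT arrays. Ms4a2 was dim, at percentile 35.0 of all genes by mean signal. Of the other mast cell and basophil genes, Cpa3 read 6.78, 6.90 and 7.29 in the KO arrays and 7.28, 6.49 and 7.27 in the WT arrays, and Mcpt8 read 7.50, 7.07 and 6.46 in the KO arrays and 6.82, 6.72 and 6.73 in the WT arrays. The summed level of 5 megakaryocyte genes was 8.95 to 8.99 in KO and 8.90 to 9.02 in WT, with 4 higher and 1 lower in KO. The lower one, the platelet glycoprotein gene Gp5, passed the unadjusted threshold, at 5.98, 6.23 and 6.10 in the KO arrays and 6.59, 6.55 and 6.73 in the WT arrays. Whether these cells have a part in the differences of the stem cell factors was not tested.

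Partners and corepressors of the 10 factors did not pass the threshold. Of 20 measured, 12 were higher and 8 lower in KO, with a median difference of 0.03. In limma 0 had an unadjusted p under 0.05, beside 10.3% of all genes, and 0 an adjusted p under 0.05. The smallest p values belonged to Tcf4, an E-protein that pairs with TAL1, at -0.21 ± 0.13 (SE), and Cbfb, the subunit that steadies RUNX1 on DNA, at 0.20 ± 0.15 (SE), or 0.07 without WT replicate 1. Named for their place in the enhancer complex, Fli1 had 0.12 ± 0.10 (SE), Lyl1 0.12 ± 0.14 (SE) and Erg -0.03 ± 0.11 (SE). Hoxa9, which partners MEIS1, read 7.41, 7.13 and 7.14 in the KO arrays and 7.24, 6.97 and 7.13 in the WT arrays, a difference of 0.12 ± 0.15 (SE).

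Of 14 family relatives of the factors, 8 were higher and 6 lower, with a median difference of 0.13. The unadjusted threshold was passed by 1 gene (7.14%, beside 10.3% of all genes). That gene was Runx3, a relative of Runx1, which read 7.50, 7.39 and 7.37 in KO and 6.99, 6.79 and 7.34 in WT. The difference was 0.38 ± 0.17 (SE; limma adjusted p = 0.479). It rests on 2 of the WT arrays, since WT replicate 3 came within 0.03 of the KO arrays, and it was 0.26 without WT replicate 2 and 0.36 without WT replicate 1. Runx3 missed the unadjusted threshold with any array but WT replicate 3 left out. Myc, named as the relative of Mycn, read 8.90, 8.98 and 9.10 in the KO arrays, against 8.50, 8.87 and 8.87 in the WT arrays. Every KO array was above every WT array, but the difference of 0.25 ± 0.13 (SE) did not pass (limma adjusted p = 0.554).

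Among 20 measured genes described as targets of the factors in blood cells, 2 were higher and 2 lower in KO at the unadjusted threshold (20%, beside 10.3% of all genes). In all, 13 were higher and 7 lower, with a median difference of 0.12. Sox4, a transcription factor gene of early progenitors, read 9.35, 9.02 and 9.27 in KO and 9.51, 9.79 and 9.42 in WT, a difference of -0.36 ± 0.13 (SE; limma adjusted p = 0.422). Another Sox4 probe set gave -0.19 ± 0.14 (SE), and the difference was -0.26 without WT replicate 2. Mfn2, a mitochondrial fusion gene and a described PRDM16 target, read 5.91, 5.55 and 5.83 in KO and 6.01, 6.21 and 6.28 in WT, a difference of -0.40 ± 0.16 (SE), or -0.30 without KO replicate 2. Sox4 missed the unadjusted threshold without KO replicate 2 or WT replicate 2, and Mfn2 without KO replicate 2, KO replicate 3, WT replicate 2 or WT replicate 3, with differences between -0.44 and -0.30 there. The direction of Mfn2 was the opposite of that of Prdm16, whose own difference did not pass.

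The higher targets were bright genes. Myb, a factor that drives progenitor proliferation, had 0.29 ± 0.12 (SE), with KO replicate 3 below WT replicate 3, and another Myb probe set gave 0.42 ± 0.18 (SE). Ncl, which encodes nucleolin and is a described MYC family target, had 0.19 ± 0.08 (SE). Neither passed the unadjusted threshold after cyclic loess, where Myb had 0.22 and Ncl 0.12. Both also missed it with quantile normalization, median centring, the replicate block and no intensity trend. Each passed the threshold under 6 of 15 alternative settings. With 1 array left out, Myb missed it without KO replicate 1 or 2 (both 0.24) or WT replicate 1 (0.27) or 2 (0.24), and Ncl without any of the KO arrays (0.16 to 0.22) or WT replicate 2 (0.15). Kit, a target of the TAL1 and GATA2 complex, had -0.07 ± 0.10 (SE).

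The other transcription and chromatin factors of stem cells were more often lower than higher in KO. Of 23, 6 were higher and 17 lower in KO, beside 11092 higher and 11088 lower of all genes. The median difference was -0.11 beside 0.00 over all genes. The unadjusted threshold was passed by 2 (8.70%, beside 10.3% of all genes), both lower. Nkx2-3, a homeobox gene, read 5.03, 5.07 and 5.12 in the KO arrays, against 5.68, 5.33 and 5.63 in the WT arrays. The groups stood 0.22 apart, the difference was -0.47 ± 0.16 (SE; limma adjusted p = 0.386), and it stayed between -0.58 and -0.41 with any array left out. Foxo3, a factor that keeps stem cells quiescent, read 5.69, 5.60 and 5.71 in KO and 5.98, 6.37 and 5.85 in WT, a difference of -0.40 ± 0.17 (SE), or -0.25 without WT replicate 2. Foxo3 missed the unadjusted threshold with any array but WT replicate 3 left out.

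**Figure D4:**
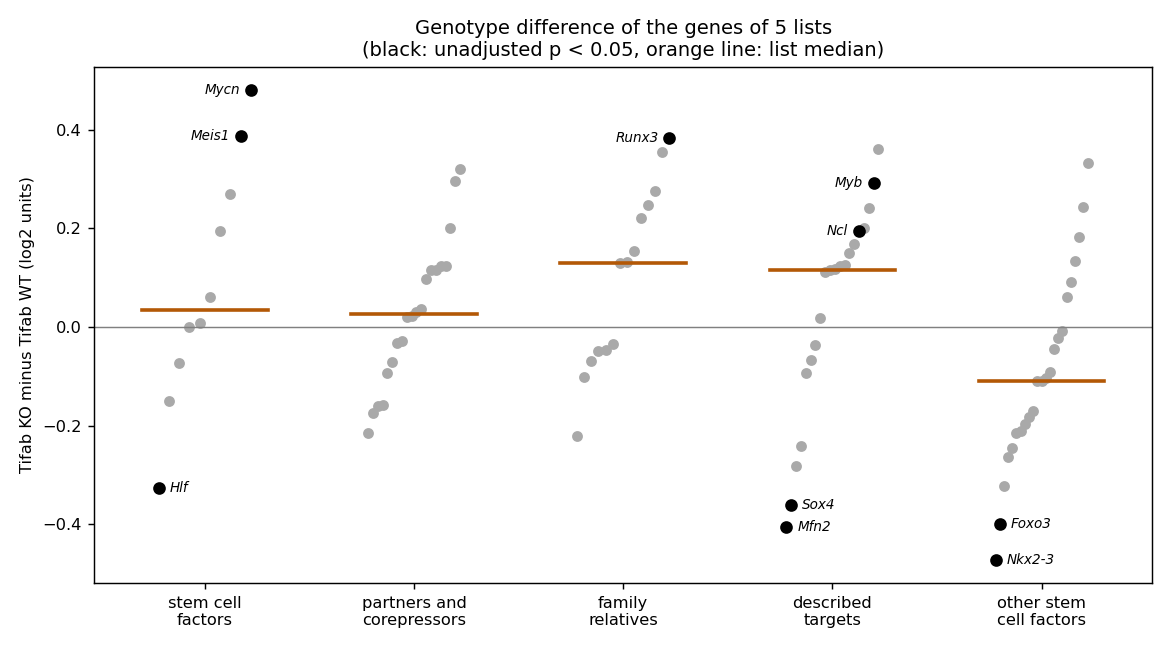
KO minus WT difference (log2 units, vertical axis) of every measured gene in 5 lists, 1 point per gene, with the list median in orange and genes with an unadjusted p under 0.05 in black and named. The medians are 0.03 for the 10 stem cell factors, 0.03 for partners, 0.13 for relatives, 0.12 for described targets and -0.11 for the other stem cell factors.

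The differences of Mycn and Meis1 kept their sign and an unadjusted p under 0.05 under 15 of 15 alternative settings, and Hlf kept its sign under 15 and the threshold under 10. These settings reuse the same arrays and are not independent checks. With an array left out the sign was fixed in advance, since the groups did not overlap for these genes. The settings for moderation, replicate block, dim genes and mean of probe sets left the size of these differences unchanged. Over these settings Mycn lay between 0.41 and 0.52, Meis1 between 0.33 and 0.48 and Hlf between -0.39 and -0.28. The lowest adjusted p of any of the 10 genes was 0.235, for Meis1 without WT replicate 3. Gata2, Runx1 and Mecom changed sign under some of the settings.

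**Figure D5:**
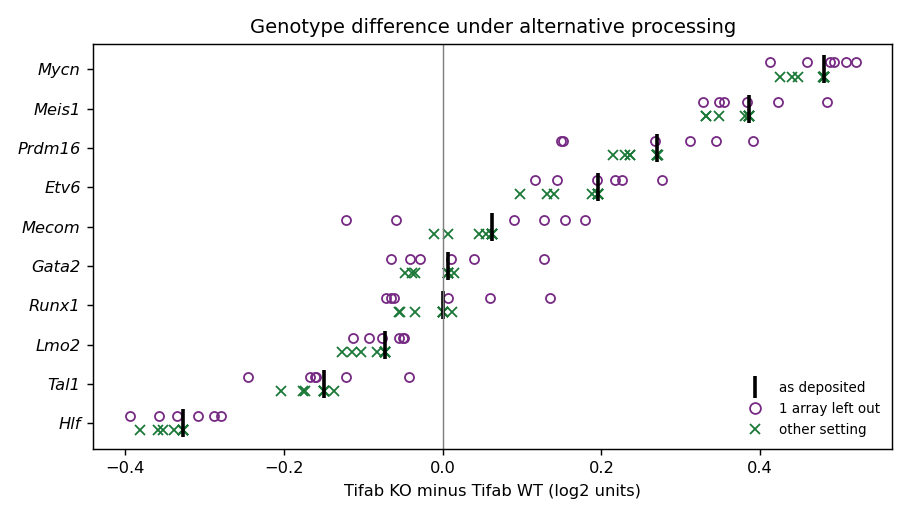
KO minus WT difference (log2 units, horizontal axis) of each gene as deposited (black bar), with 1 array left out (open circles) and under the 9 other settings (crosses). Mycn and Meis1 stay above 0.3 and Hlf below -0.2 in all of them, while Mecom, Gata2 and Runx1 fall on both sides of 0.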

How the data were processed

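The authors deposited 1 table of log2 values, 41345 probe sets by 6 arrays, running from 0.833 to 13.5 with array medians of 4.05 to 4.10. Per the submitters' processing notes they came from Affymetrix Expression Console; their version, background correction, summary and normalization steps are not stated there. Where arrays are scaled to each other, a change in total RNA per cell is lost, and the number of arrays, 3 a group, limits the precision. Whether the 3 samples of a group share a sort or an extraction day is not stated.

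Names came from the platform annotation: 23521 had 1 symbol, 1814 several (left out) and 16010 none listed. Entrez identifiers of 23328 matched RefSeq (GRCm38.p6) and changed 0 symbols. The probe set with the highest mean over the 6 arrays stood for a gene. No pair of arrays was identical. KO was compared with WT in limma 3.58.1 under R 4.3.3 (lmFit, eBayes with an intensity trend, genotype as the only term, two-sided, Benjamini-Hochberg over 22180 genes, threshold 0.05), after the code had been tested on simulated data. Summed levels of marker genes are log2 of the sum of linear signals.

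The 10 genes, the other lists and the alternatives were chosen with earlier results of these data known. By rule the text names all 10, every gene of the partner, relative, target and other stem cell factor lists with an unadjusted p under 0.05, or else the 2 with the smallest p, and Tifab. Marker lists are given by counts and summed levels. Lyl1, Fli1, Erg, Hoxa9, Myc, Kit, Procr, Fgd5, Cd27, Slamf1, Tek, Robo4, Esam, Cd34, Flt3, Prg2, Epx, Ms4a2, Cpa3, Mcpt8, Gp5, Mmp8, Vcam1, Cd5l, Hoxb4, C1qa and C1qb were added for their role or after their values were seen. Listed genes that lacked a probe set with a single symbol were not analysed here. Promoters come from the RefSeq table; the rule also asked for protein sequences of Mecom and Prdm16, which were not used here.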

Additional observations from a re-analysis of the deposited data

How the results depend on the processing

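Each result was recomputed under 15 alternatives: 6 that left out 1 array each, and 9 that changed the moderation, the normalization, the filter on dim genes, the probe sets per gene, array weights or the pairing. None of the 10 stem cell factors passed the adjusted threshold under any of them; with single arrays left out, 2 to 3 passed the unadjusted one, and with the replicate block 2 did, without Hlf. Deviations of same-numbered arrays from their group means correlated at 0.02, -0.03 and -0.09 across genes, and KO replicate 2 correlated best with WT replicate 3 (0.11). With 3 arrays a group, these correlations cannot settle whether same-numbered samples shared a sort or a day, which is not stated. The count of family relatives past the unadjusted threshold was 0 with median centring and 0 with the replicate block, and 0 to 1 with arrays left out. The count of described targets, 4 as deposited, was 1 without the intensity trend, 2 with median centring, 1 with the replicate block and 1 to 4 with arrays left out. The count of other stem cell factors, 2 as deposited, was 1 with the replicate block, 1 without dim genes and 1 to 3 with arrays left out, and that of partners 0 to 1 with arrays left out. The causes were not tested. Gata2 turned to -0.036 with cyclic loess, -0.048 with median centring and -0.039 with quantile normalization, and Runx1 to -0.035, -0.054 and -0.055. Mecom turned to -0.011 with the mean of its probe sets. With arrays left out, Gata2 lay between -0.065 and 0.13, Runx1 between -0.071 and 0.14 and Mecom between -0.12 and 0.18. Median centring moved the median of all genes to -0.05.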

Other observations

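The genes here were chosen after their values were seen. Hoxb4, a homeobox gene known for expanding stem cells in culture, read 6.16, 5.73 and 5.73 in the KO arrays, against 5.52, 5.56 and 5.54 in the WT arrays. The groups did not overlap, and the difference of 0.33 ± 0.17 (SE) did not pass the unadjusted threshold (limma adjusted p = 0.531). Of the 7 macrophage genes, 3 were higher and 4 lower in KO, whether or not they passed. The unadjusted threshold was passed by 4 of the 7, 3 of them lower in KO, beside 10.3% of all genes. Vcam1, an adhesion gene, read 4.31, 4.75 and 4.26 in the KO arrays, against 5.59, 5.12 and 4.85 in the WT arrays. Cd5l, a secreted macrophage protein gene, read 2.32, 2.33 and 2.16 in the KO arrays, against 2.95, 3.04 and 5.19 in the WT arrays, where 1 array stood far above the others. Cd5l was a dim gene, at percentile 20.7 of all genes by mean signal. The remaining pair, C1qa and C1qb, encode chains of complement C1q and lay on opposite sides. C1qa read 5.16, 5.53 and 5.66 in the KO arrays, against 4.97, 4.91 and 4.91 in the WT arrays. C1qb read 4.65, 4.78 and 4.84 in the KO arrays, against 5.08, 5.40 and 5.31 in the WT arrays. None of these passed adjustment over all genes.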
